A study of Mus musculus with 6 samples.

Results

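Glycolysis is the chain of cytosolic reactions that splits glucose into pyruvate and gives ATP without oxygen. Glucose enters fibroblasts mainly through the transporter GLUT1 (Slc2a1), is trapped by hexokinases and is committed to the pathway by phosphofructokinases, after which aldolase, phosphoglycerate kinase and the later enzymes complete it. Lactate dehydrogenase turns the pyruvate into lactate. Transcription of these genes is known to be raised by hypoxia-inducible factors (HIFs), and how long the mRNAs last is a separate step of their control, in which the CCR4-NOT complex removes poly(A) tails.

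The genes described here were chosen by name from the transporter to lactate dehydrogenase: Slc2a1, Hk1, Hk2, Gpi1, Pfkl, Pfkp, Aldoa, Pgk1, Eno1 and Ldha. Every probe set that the array annotation assigns to exactly 1 gene symbol among them was taken. A probe set is a group of oligonucleotides on the array that reports 1 signal. This gave 21 of the 45037 probe sets for 8 of the 10 genes: 3 for Slc2a1, 2 for Hk1, 1 for Hk2, 3 for Pfkl, 3 for Pfkp, 5 for Aldoa, 3 for Pgk1 and 1 for Ldha. Gpi1 and Eno1 were not analysed here.

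All cells were primary mouse embryonic fibroblasts (MEFs) homozygous for a floxed Cnot3 allele (CNOT3loxP/loxP). CNOT3-depleted (CNOT3KD) MEFs had received a Cre-expressing retrovirus and control MEFs a mock retrovirus, followed by 2 days of puromycin selection in both. In the labels the control genotype reads wild type, whereas the methods name mock-infected floxed cells. Both kinds of culture were sampled untreated (0 h) and after 6 or 12 h in actinomycin D (Act. D). The drug stops transcription, so that the loss of signal over time follows the decay of the mRNA.

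The comparison asked which transcripts lasted longer without CNOT3, a subunit of CCR4-NOT. Each of the 6 conditions was hybridized to 1 array. There is therefore no replicate error, no test and no p-value for any difference below, and each is a ratio between 2 arrays. CNOT3KD MEFs die by necroptosis in culture, and in bulk RNA a smaller number of expressing cells and less RNA per cell cannot be told apart. The Cnot3 probe set with the stronger signal read 240 in CNOT3KD MEFs at 0 h, against 436 in control MEFs, and was 1.82-fold lower, while the other read 227 in CNOT3KD MEFs and 204 in control MEFs. Whether either lies within the deleted exons was not tested.

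Values are MAS5 signals, with the trimmed mean of every array between 494 and 497. The median signal of an array was 51.0 to 77.4. Because each array was brought to the same mean, signals after Act. D are relative to the mRNA that remained, and a stable mRNA can read above 100% of its 0 h signal. The median over 37 ribosomal protein genes, whose mRNAs are long-lived, was 109% at 6 h and 114% at 12 h in CNOT3KD MEFs, against 153% and 181% in control MEFs. All 12 fibroblast markers tested, collagens and Vim among them, were in the brighter part of the table, and 0 of them differed by more than 1.5-fold at 0 h. The summed signal of 8 epithelial markers lay between 2437 and 2872 in CNOT3KD MEFs and between 1017 and 1275 in control MEFs, led by Krt19. Of these 8, 5 passed 1.5-fold upwards at 0 h and 1 downwards, while the defining marker Epcam read 154 in CNOT3KD MEFs and 145 in control MEFs. Summed over 8 skeletal muscle markers, led by Acta1, it lay between 6676 and 7443 in CNOT3KD MEFs and between 3831 and 5491 in control MEFs, with 3 of 8 higher, 1 lower and Myod1 at 26.6 in CNOT3KD MEFs and 21.1 in control MEFs at 0 h. For 9 leukocyte markers the sum lay between 3515 and 4889 in CNOT3KD MEFs and between 2368 and 4922 in control MEFs, with 3 higher, 1 lower and Ptprc at 65.1 in CNOT3KD MEFs and 62.7 in control MEFs. For 6 neural markers, led by Tubb3, it lay between 1389 and 1742 in CNOT3KD MEFs and between 935 and 1148 in control MEFs, with 2 higher, 1 lower and Snap25 at 8.29 in CNOT3KD MEFs and 14.7 in control MEFs. Over the whole array, 18.6% of probe sets passed 1.5-fold upwards at 0 h and 22.1% passed it downwards. Among the markers counted upwards, Cdh1, Krt14, Tnnt1 and Nefl read 8.35, 9.92, 9.60 and 11.9 in control MEFs at 0 h. These signals were under the lower quartile of that array, 19.8. Those counted downwards, Cldn4, Myh3, Itgam and Snap25, read 10.4, 4.25, 5.45 and 8.29 in CNOT3KD MEFs, under the lower quartile, 18.8. The part of epithelial, muscle, leukocyte or neural cells in the values of the glycolysis genes was not tested.

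The promoters of these genes carry the short sequence that HIFs bind, ACGTG or GCGTG on either strand, and 5 stretches are shown because the same letters stand before genes that behaved differently after Act. D. The motif is in capitals. Each stretch is written 5′ to 3′ on the strand of the gene, in RefSeq promoter windows of build GRCm38.p6. In the deposited values the first 2 genes lost signal in control MEFs under Act. D, and the other 3 did not. For Ldha this depended on the scaling. With arrays quantile normalized or scaled to the ribosomal protein genes, it had 76.3% and 75.1% left at 12 h in control MEFs. The brightest Pgk1 probe set then had 95.1% and 96.3%.
Slc2a1, chr4:119108697-119108725, plus strand: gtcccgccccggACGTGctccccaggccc
Hk2, chr6:82774490-82774518, minus strand: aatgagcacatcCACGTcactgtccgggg
Pfkl, chr10:78009890-78009918, minus strand: atttgtagactgGCGTGcgctccgccttt
Pgk1, chrX:106186938-106186966, plus strand: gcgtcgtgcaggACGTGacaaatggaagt
Ldha, chr7:46845745-46845773, plus strand: ggcccagcctacACGTGggttcccgcacg
The motif begins 36 bases before the start of Slc2a1, 52 before Hk2 (where it reads from the opposite strand, as CACGT), 99 before Pfkl, 150 before Pgk1 and 47 before Ldha. Over windows of 300 bases, 250 before and 50 after the start, it stood in 10 of the 12 windows of the 8 measured genes and in at least 1 window of each gene. In all, 43.8% of 32851 promoter windows of the same length held it, and the windows of the measured genes had a GC content of 51.3% to 67.3%, against a median of 52.7%. A match describes the letters only, and binding was not measured.

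**Figure D1:**
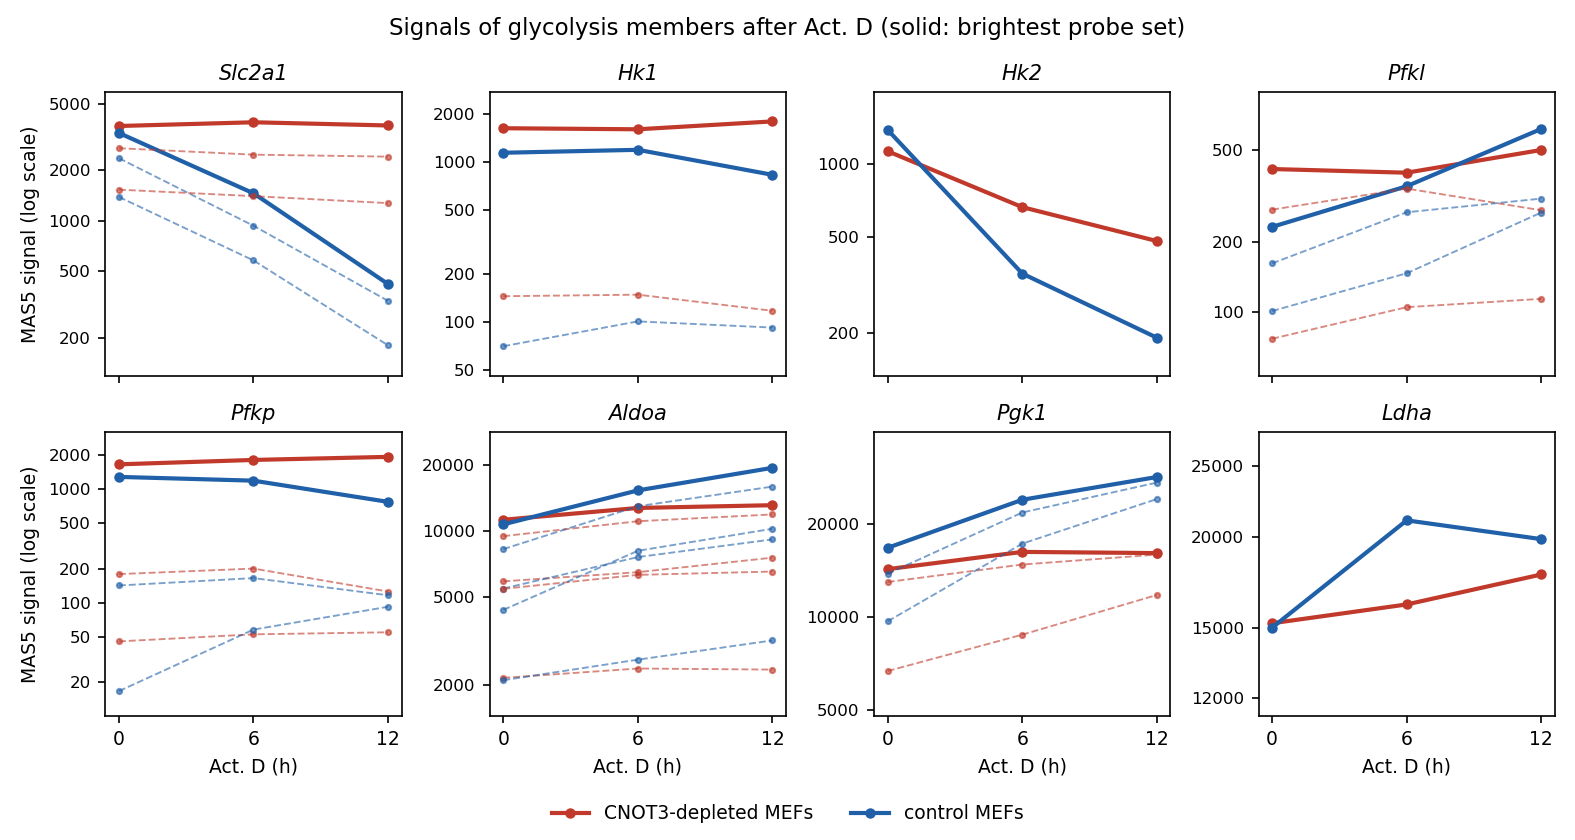
MAS5 signal (log axis) against hours of Act. D for the 8 measured genes, with CNOT3KD MEFs in red and control MEFs in blue, 1 array per point. Solid lines are the brightest probe set of each gene and dashed lines its others. Slc2a1 and Hk2 drop to 420.2 and 192 in control MEFs at 12 h. In these values without further scaling, all Aldoa and Pgk1 probe sets stand above their 0 h signal at 12 h in both cultures.

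Slc2a1, which carries glucose into the cell, kept its signal in CNOT3KD MEFs and lost most of it in control MEFs. Its brightest probe set read 3673, 3866 and 3700.5 at 0, 6 and 12 h in CNOT3KD MEFs, against 3339.7, 1459 and 420.2 in control MEFs. The second read 2708, 2479 and 2413 in CNOT3KD MEFs, against 2362, 935 and 333 in control MEFs. The 3 CNOT3KD arrays were nearly level, and the control arrays were ordered by time on both probe sets. The third probe set had the same order, with 1534, 1404 and 1275 in CNOT3KD MEFs, against 1388, 581 and 181 in control MEFs.

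At 12 h, 101%, 89.1% and 83.1% of the 0 h Slc2a1 signal was left in CNOT3KD MEFs on the 3 probe sets, against 12.6%, 14.1% and 13.1% in control MEFs. Untreated cells differed little, at 1.10- to 1.15-fold higher in CNOT3KD MEFs. The difference between cultures was 2.42- to 2.65-fold at 6 h and 7.04- to 8.81-fold at 12 h, on every probe set higher in CNOT3KD MEFs. A straight line on the log scale between the 0 and 12 h values gave apparent half-lives of 4.01, 4.25 and 4.09 h in control MEFs, on the relative scale of these arrays. No half-life was computed for CNOT3KD MEFs, where the signal hardly fell.

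How much longer a signal lasted was expressed as log2 stabilization, the fraction left in CNOT3KD MEFs over that in control MEFs on the log2 scale, as the mean of 6 and 12 h. For Slc2a1 it was 2.13, 1.93 and 1.90, higher than 95.8%, 94.2% and 93.9% of the 22519 bright probe sets. Bright means that the log2 signal at 0 h, averaged over both cultures, was no lower than its median over all probe sets. The study lists Slc2a1 among the transcripts it found stabilized on these same arrays, so these values are no independent evidence of that.

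The 5 genes whose time course was nearest to that of Slc2a1 were Nup133, a subunit of the nuclear pore, Gmnn, which restrains DNA replication licensing, Plrg1, a splicing factor, Txnl1, a thioredoxin-like protein, and Psmg2, a proteasome assembly chaperone. Nearness was the Euclidean distance of log2 signals, centred on their mean over the 6 arrays, among 11061 genes. The distances ran from 0.17 for Nup133 to 0.23 for Psmg2, while the Slc2a1 probe sets lay 0.18 to 0.29 from one another. Nup133 had 99.0% of its signal left at 12 h in CNOT3KD MEFs, against 11.3% in control MEFs.

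The hexokinases phosphorylate glucose so that it stays in the cell. Hk2, the inducible form, had 1 probe set, which read 1134, 665 and 482 at 0, 6 and 12 h in CNOT3KD MEFs, against 1389.5, 353 and 192 in control MEFs. Signals fell with time in both cultures, but further in control MEFs, so that Hk2 was 1.23-fold lower in CNOT3KD MEFs at 0 h, 1.88-fold higher at 6 h and 2.51-fold higher at 12 h. The signal left at 12 h was 42.5% in CNOT3KD MEFs, against 13.8% in control MEFs. The apparent half-life over 12 h was 9.72 h in CNOT3KD MEFs, against 4.20 h in control MEFs, and the control loss was faster over the first 6 h, at 3.04 h, than over the last 6 h, at 6.80 h. Its log2 stabilization of 1.41 exceeded that of 88.5% of the bright probe sets.

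Slc2a1 and Hk2 thus ended at nearly the same share in control MEFs, but in CNOT3KD MEFs Hk2 had 42.5% left and Slc2a1 at least 83.1%.

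Hk1 is the constitutive hexokinase of most tissues. Its brighter probe set read 1632, 1607 and 1800.2 in CNOT3KD MEFs, against 1145, 1195 and 833 in control MEFs. At 0 h the CNOT3KD signal was 1.42-fold higher, and it was 1.34-fold higher at 6 h and 2.16-fold at 12 h. The dimmer one read 144, 148 and 117 in CNOT3KD MEFs, against 70.2, 100.4 and 91.8 in control MEFs, and was 2.06-fold higher at 0 h. Both probe sets placed all 3 CNOT3KD arrays above all 3 control arrays. They differed in the sign of the log2 stabilization, which was 0.26 on the brighter and -0.59 on the dimmer, and the first turned to -0.10 when the arrays were quantile normalized, so no direction is given for the decay of Hk1.

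The phosphofructokinases carry out the committed step. Pfkl, the liver form, read 415, 399.6 and 501 in CNOT3KD MEFs on its brightest probe set, against 233, 349 and 617 in control MEFs. On the second it read 277, 341 and 275 in CNOT3KD MEFs, against 162, 269.8 and 309 in control MEFs. Pfkl was therefore higher in CNOT3KD MEFs at 0 h, by 1.78- and 1.71-fold, and lower at 12 h on both, although with ribosomal protein scaling the 12 h log2 folds turned to 0.33 and 0.46, and with median scaling they were -0.02 and 0.12. The third probe set went the other way at 0 h, with 76.9, 105 and 114 in CNOT3KD MEFs, against 101, 147 and 269 in control MEFs, and was 1.32-fold lower. On all 3 probe sets the signal left at 12 h was smaller in CNOT3KD MEFs, at 121%, 99.4% and 149%, against 265%, 190.3% and 266% in control MEFs. The log2 stabilization of the brightest, -0.88, was the lowest among the brightest probe sets of the 8 genes and was above only 6.88% of the bright probe sets. It stayed below 0 under each alternative scaling, at -0.37 with arrays scaled to the ribosomal protein genes and -1.33 with quantile normalization.

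Pfkp, the platelet form, read 1647, 1800.4 and 1916 in CNOT3KD MEFs on its brightest probe set, against 1278, 1184 and 771 in control MEFs. All 3 CNOT3KD arrays were above all 3 control arrays, and the difference was 1.29-fold at 0 h, 1.52-fold at 6 h and 2.48-fold at 12 h. The signal left at 12 h was 116% in CNOT3KD MEFs, against 60.3% in control MEFs, with a log2 stabilization of 0.59. The second probe set was 1.26-fold higher in CNOT3KD MEFs at 0 h, 1.21-fold at 6 h and 1.08-fold at 12 h, with 179, 200.0 and 126 in CNOT3KD MEFs, against 142, 165 and 117 in control MEFs, and a log2 stabilization of -0.14. The third was dim, at 45.9, 52.9 and 55.1 in CNOT3KD MEFs, against 16.8, 58.2 and 92.4 in control MEFs. Its 0 h control signal was under the lower quartile of that array, 19.8, so its ratios rest on a value near background. The brightest and second Pfkp probe sets did not share a direction of log2 stabilization, and which of them follows the full-length mRNA was not tested.

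Aldoa, the fibroblast and muscle aldolase, which cleaves fructose bisphosphate, read 11283, 12774 and 13148 in CNOT3KD MEFs on its brightest probe set, against 10751, 15358 and 19465 in control MEFs. The cultures were nearly level at 0 h, and by 12 h the control array stood 1.48-fold above the CNOT3KD one. The other 4 probe sets had the same pattern, with a fold at 0 h of 1.02 to 1.25 and a signal left at 12 h of 109% to 128% in CNOT3KD MEFs, against 152% to 234% in control MEFs. All 5 had a log2 stabilization below 0, from -0.83 to -0.32, which became -0.31 to 0.19 when arrays were scaled to the ribosomal protein genes. All 5 are also of the kind whose oligonucleotides can match other transcripts, near-identical copies included, and their assignment to Aldoa is uncertain to that extent.

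Pgk1, phosphoglycerate kinase, makes the first ATP of the pathway. In the deposited values it had the lowest CNOT3KD signals relative to control after Act. D among the brightest probe sets of the 8 genes. With quantile normalization the log2 folds at 6 and 12 h were lower for Pfkl, at -0.20 and -0.75, than for Pgk1, at -0.15 and -0.20. The brightest Pgk1 probe set read 14325, 16297 and 16151 in CNOT3KD MEFs, against 16802, 24059 and 28523 in control MEFs. The second read 13015, 14829 and 15971 in CNOT3KD MEFs, against 13845, 21875 and 27356 in control MEFs. Every control array exceeded its CNOT3KD counterpart on both, by 1.17- and 1.06-fold at 0 h and by 1.77- and 1.71-fold at 12 h. The third probe set read 6690.4, 8778 and 11813 in CNOT3KD MEFs, against 9701, 17334 and 24189.7 in control MEFs, and was 1.45-fold lower at 0 h. The brightest and the third can also match other transcripts.

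Ldha, which turns pyruvate into lactate, read 15205, 16138 and 17746 in CNOT3KD MEFs, against 14994, 21066 and 19849 in control MEFs. It was level at 0 h, at 1.01-fold, 1.31-fold lower in CNOT3KD MEFs at 6 h and 1.12-fold lower at 12 h.

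For Aldoa, Pgk1 and Ldha the direction after Act. D depended on the scaling. Their log2 stabilization was -0.49, -0.46 and -0.29, and became 0.03, 0.05 and 0.22 when arrays were scaled to the ribosomal protein genes, a scaling that shifted the median over the whole array by 0.51. With that ribosomal protein scaling 98.8%, 95.6% and 99.0% of their signal was left at 12 h in CNOT3KD MEFs, against 103%, 96.3% and 75.1% in control MEFs, and Slc2a1 had 85.4% left in CNOT3KD MEFs, against 7.14% in control MEFs. The 12 h log2 fold of Aldoa and Ldha then also turned above 0, to 0.06 and 0.47, while that of Pgk1 was -0.19. With quantile normalization the log2 stabilization of Aldoa, Pgk1 and Ldha was -0.04, 0.01 and 0.18.

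**Figure D2:**
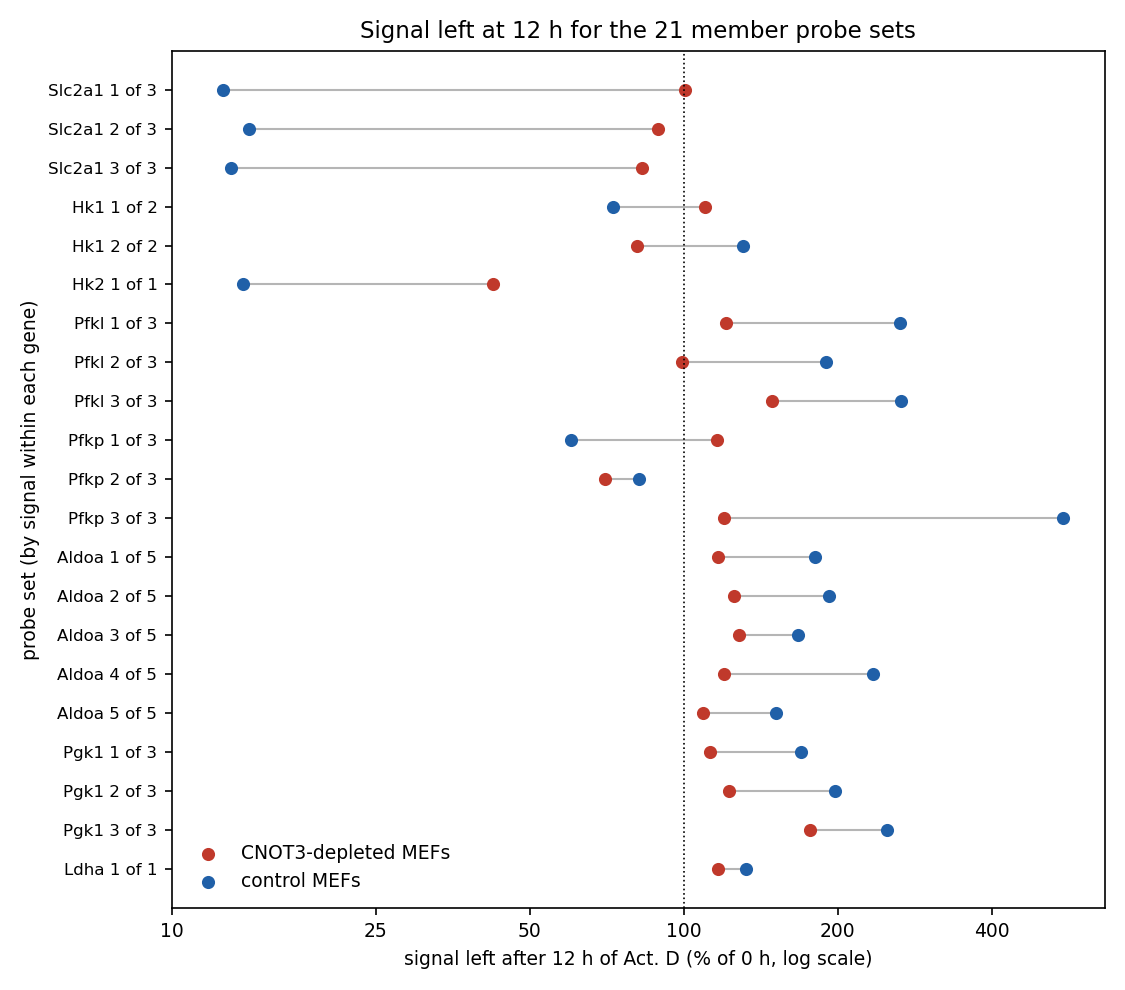
Signal left after 12 h of Act. D as a percentage of 0 h (log axis) for each of the 21 probe sets, in CNOT3KD MEFs (red) and control MEFs (blue), numbered within a gene from the brightest. The 3 Slc2a1 probe sets and Hk2 lie at 12.6% to 14.1% in control MEFs and at 42.5% to 101% in CNOT3KD MEFs, and all Pfkl, Aldoa, Pgk1 and Ldha probe sets lie further right in control MEFs, although with arrays scaled to the ribosomal protein genes Ldha and some probe sets of Aldoa and Pgk1 change sides.

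Counted by a fixed size, 4 of the 21 probe sets exceeded 1.5-fold at 0 h on the side of CNOT3KD MEFs, against 18.6% of all probe sets. These were the 2 brighter Pfkl probe sets, the dimmer Hk1 and the dimmest Pfkp, whose control signal was near background. None, 0 of 21, was more than 1.5-fold lower, against 22.1% of all probe sets. Among the 20 bright probe sets of these genes, 3 were higher and 0 lower, against backgrounds of 9.46% and 11.7%. The dimmer Hk1 probe set, among these 3, read 70.2 in control MEFs at 0 h, under the median of that array, 77.4. It thus counted as bright only through CNOT3KD MEFs, where it was high. The median log2 fold over the brightest probe sets of the 8 genes was 0.10, with a range of -0.29 to 0.83 and 6 of 8 above 0, against -0.03 over all probe sets. The share of higher probe sets, 19.0%, is near the background, and the 0 on the lower side covers only 8 genes.

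Stabilization was counted for bright probe sets that kept between 0.5 and 2 times their 0 h signal at 6 h in CNOT3KD MEFs and whose fraction left, at 6 h and again at 12 h, reached 2 times the control fraction or more. This held for 4 of 20 probe sets, the 3 of Slc2a1 and that of Hk2, against 8.89% of all bright probe sets. They belong to 2 of 8 genes. With quantile normalization 2 of them still met the rule, both of Slc2a1, while the third Slc2a1 probe set and Hk2 missed it, at 1.75 and 1.83 times the control fraction at 6 h. With the cultures exchanged, 0 of 20 met the rule, against 0.857%. The median log2 stabilization over the 8 genes was -0.02, with 4 above 0 and a range of -0.88 to 2.13, against 0.04 over all bright probe sets. The 8 genes thus lay far apart on either side of their median.

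Within control MEFs, 4 of 20 probe sets had 50% or less left at 12 h, again those of Slc2a1 and Hk2, against a background of 37.4%. Within CNOT3KD MEFs only Hk2 did, 1 of 20, against 21.2%. A signal more than 1.5 times that of 0 h was found at 12 h for 1 of 20 in CNOT3KD MEFs, the third Pgk1 probe set, against 4.2%. In control MEFs it was found for 11 of 20, all from Pfkl, Aldoa and Pgk1, against 21.6%, on the relative scale on which the ribosomal protein genes stood at a median of 181%. The median signal left at 12 h over the 8 genes was 115% in CNOT3KD MEFs and 103% in control MEFs, against 91.4% and 73.9% over all bright probe sets.

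**Figure D3:**
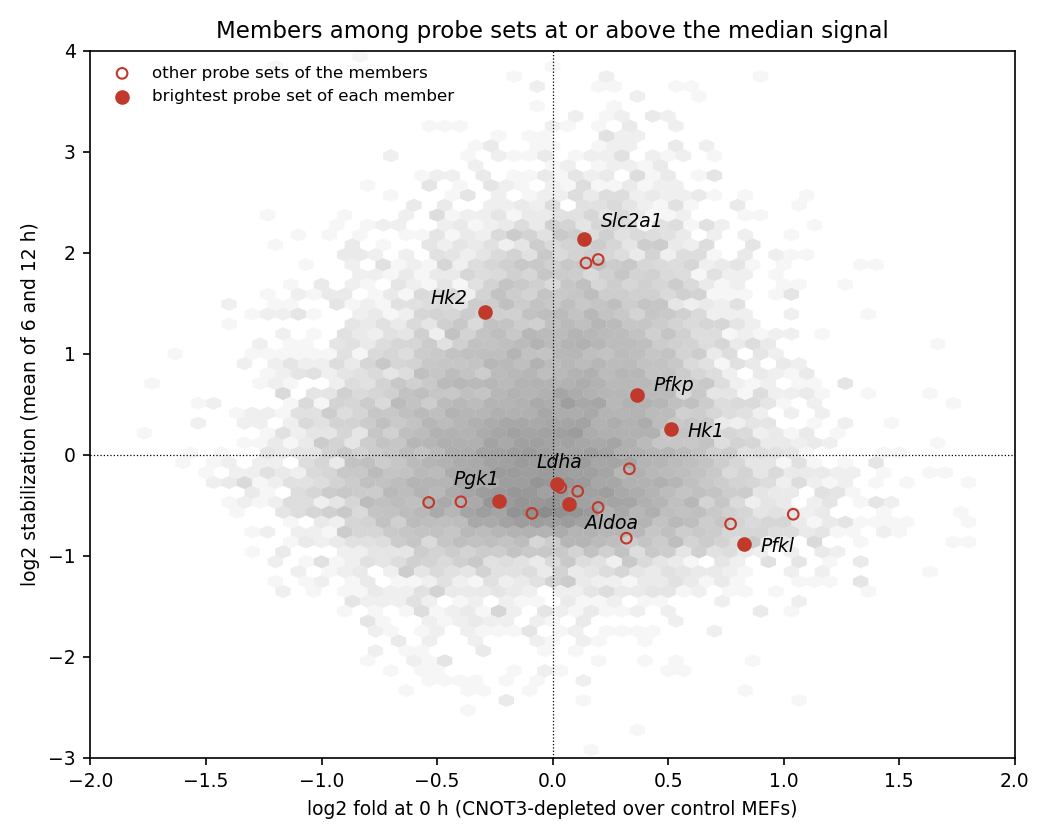
Log2 stabilization against log2 fold at 0 h (CNOT3KD over control MEFs) for the 22519 bright probe sets (grey, darker where denser, a few beyond the axes not drawn), with the brightest probe set of each gene as filled red points and their others as open red circles. Slc2a1 (2.13) and Hk2 (1.41) lie above the dense part, and Pfkl (-0.88) lies at its lower right.

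Genes around the pathway were read in the same way, from the brightest probe set of each gene and only where that was bright. Among the other glycolysis enzymes 4 of 10 exceeded 1.5-fold at 0 h on the side of CNOT3KD MEFs, against 9.46% of all bright probe sets, 0 were lower and 0 stabilized. Aldoc, the aldolase known from brain, read 486, 588 and 837 in CNOT3KD MEFs, against 65.8, 119 and 143 in control MEFs, and was 7.39-fold higher at 0 h. Pgam2, the muscle phosphoglycerate mutase, read 179.6, 206 and 253 in CNOT3KD MEFs, against 43.4, 34.3 and 62.5 in control MEFs, and was 4.14-fold higher. The 0 h control signals of Aldoc and Pgam2 were under the median of that array, 77.4. Both thus counted as bright only through CNOT3KD MEFs, where they were high, and the share of 4 of 10 rests partly on them. Their relatives Aldoa and Pgam1 were nearly level at 0 h, at 1.05- and 1.03-fold.

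After Act. D, 9 of these 10 enzymes had more relative signal in control MEFs at 12 h than at 0 h, from 126% to 218%. Bpgm, bisphosphoglycerate mutase, was the exception, with 86.2% left in CNOT3KD MEFs, against 27.1% in control MEFs. On this relative scale the control median at 12 h was 181% over the ribosomal protein genes and 73.9% over all bright probe sets. Some of the 9 enzymes lay below the ribosomal protein median, from 126% to 165%, and the others above it, from 184% to 218%. How far the scaling of the arrays accounts for their rise was not tested. Eno2, the neuronal enolase, had 49.1% left in CNOT3KD MEFs, against 137% in control MEFs, with a log2 stabilization of -1.06.

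Among other glucose transporters, 1 of 5 was higher at 0 h and 0 were stabilized, against 9.46% and 8.89% of all bright probe sets. Slc2a3, the high-affinity transporter GLUT3, read 424, 271 and 346 in CNOT3KD MEFs, against 166, 171 and 253 in control MEFs, and was 2.56-fold higher at 0 h. Unlike Slc2a1, it had less left at 12 h in CNOT3KD MEFs, 81.6%, than in control MEFs, 153%. Slc2a8, an intracellular transporter, had 85.8% left in CNOT3KD MEFs, against 231% in control MEFs, and Slc2a13, a myo-inositol transporter, had 85.4% in CNOT3KD MEFs, against 168% in control MEFs.

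Regulators of glycolysis included 2 of 15 genes that met the rule for stabilization, against 8.89% of all bright probe sets. Vhl, which marks HIF proteins for degradation, read 678, 594 and 435 in CNOT3KD MEFs, against 563, 189.7 and 88.8 in control MEFs. Tigar, a fructose bisphosphatase that slows glycolysis, read 336, 274 and 289.8 in CNOT3KD MEFs, against 298, 118 and 88.1 in control MEFs. Txnip, which lowers glucose uptake, was the 1 of 15 above 1.5-fold at 0 h, at 1.57-fold, against 9.46% of all bright probe sets. Arnt, the partner of HIF proteins, was 1.35-fold higher. The median log2 stabilization of the list was 0.29.

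Of the genes for lactate transport and the fate of pyruvate, 1 of 17 was higher at 0 h, 1 lower and 1 stabilized, each a smaller share than among all bright probe sets (9.46%, 11.7% and 8.89%). Ldhb, the heart form of lactate dehydrogenase, was 1.65-fold higher, at 2164 in CNOT3KD MEFs against 1311 in control MEFs. Slc16a1, the monocarboxylate transporter MCT1, which exports lactate, was 1.62-fold lower, at 1732 in CNOT3KD MEFs against 2803 in control MEFs. Pdhx, a structural subunit of pyruvate dehydrogenase, had 83.9% left at 12 h in CNOT3KD MEFs, against 14.8% in control MEFs, and Dld, another subunit, had 108% in CNOT3KD MEFs against 35.2% in control MEFs.

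HIF targets outside glycolysis were more than 1.5-fold higher at 0 h for 5 of 17 genes, lower for 1 and stabilized for 2, against 9.46%, 11.7% and 8.89% of all bright probe sets. Adm, the vasodilator peptide adrenomedullin, read 808, 792 and 778 in CNOT3KD MEFs, against 2377, 285 and 246 in control MEFs. It was 2.94-fold lower at 0 h and yet had 96.4% left at 12 h in CNOT3KD MEFs, against 10.3% in control MEFs. Bnip3, a mitophagy receptor, was 2.06-fold higher at 0 h. The other genes counted as higher lay only just past the threshold, between 1.51- and 1.55-fold. Egln3, a HIF prolyl hydroxylase, was stabilized, with 137% left in CNOT3KD MEFs, against 51.9% in control MEFs.

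Gluconeogenesis and glycogen genes were higher at 0 h for 4 of 13 and stabilized for 0, against 9.46% and 8.89% of all bright probe sets. The glycogen phosphorylases Pygl and Pygb, which release glucose phosphate from glycogen, were 2.46- and 1.96-fold higher in CNOT3KD MEFs. Pgm3, which works in amino sugar synthesis, had 133% left at 12 h in CNOT3KD MEFs, against 59.0% in control MEFs. In the pentose phosphate pathway, 0 of 7 genes passed 1.5-fold at 0 h in either direction and 0 were stabilized. The shares of all bright probe sets were 9.46% higher, 11.7% lower and 8.89% stabilized, beside which a 0 over 7 genes carries little information. Its named genes H6pd, Pgls, Rpe and Tkt lay between 1.05- and 1.22-fold higher at 0 h. Each had more left at 12 h in control MEFs, at 146% to 201%, on the relative scale where ribosomal protein genes had a median of 181%. Ribosomal protein scaling, which multiplies all signals of an array alike, shifted the log2 stabilization by 0.51. That shift was larger than the size of the log2 stabilization of H6pd, -0.48, and Rpe, -0.43, so their direction depended on the scaling. It was smaller than that of Pgls, -0.65, and Tkt, -0.61. The signal left at 12 h was not recomputed for these genes. None of the 7 lists had a gene that met the rule with the cultures exchanged, against 0.857% of all bright probe sets.

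**Figure D4:**
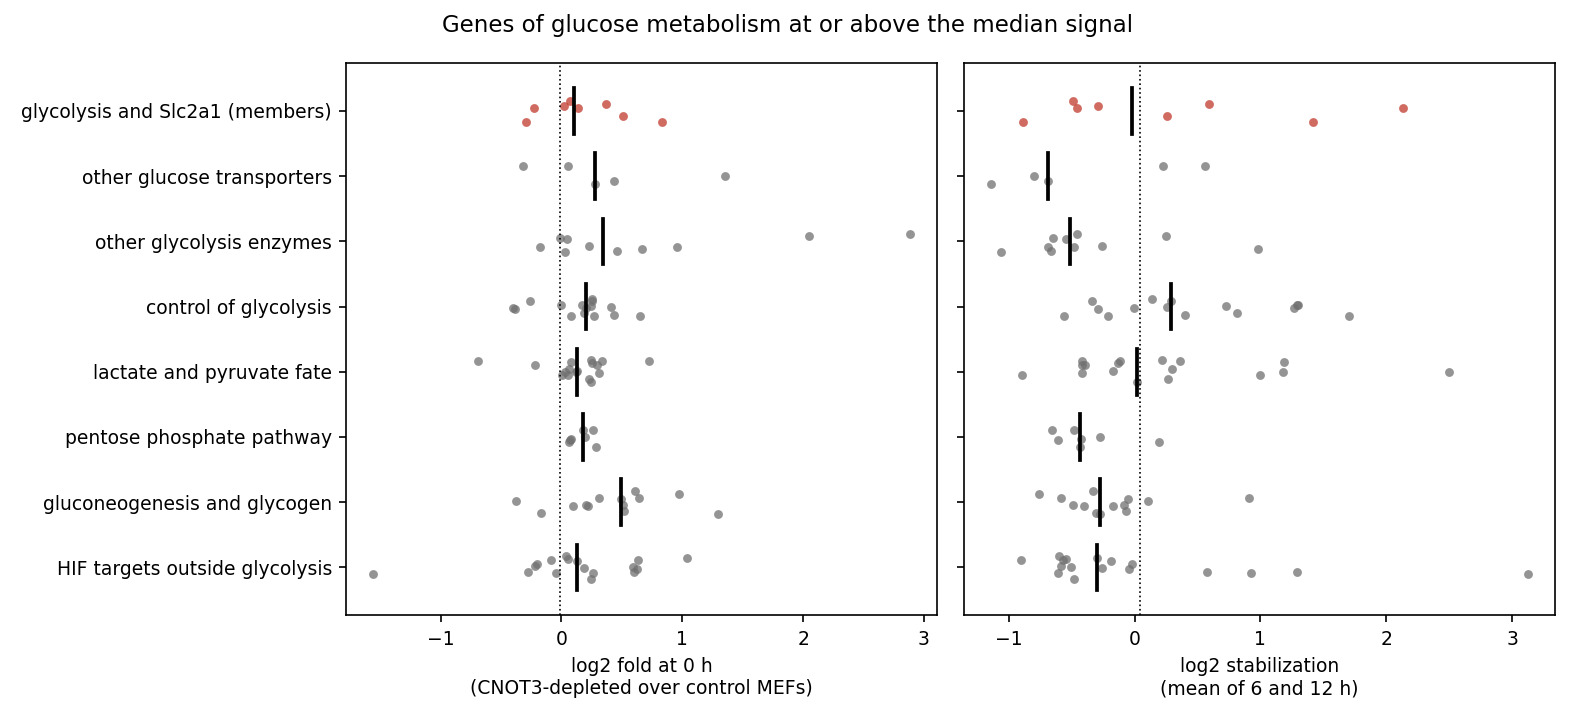
Log2 fold at 0 h (left, CNOT3KD over control MEFs) and log2 stabilization (right) of the measured glycolysis genes and Slc2a1 (red) and of 7 further lists (grey), 1 point per gene with a bright probe set, with the list median as a black bar and the median of all such probe sets as a dotted line. The medians of stabilization lie between -0.69 for other glucose transporters and 0.29 for regulators of glycolysis, and single genes reach 2.13 (Slc2a1) and 3.13 (Adm).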

How the data were processed

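The authors prepared biotin-labelled cRNA from total RNA, hybridized it to GeneChips for the mouse genome and computed MAS5 signals. The deposited values are these intensity values, on a linear scale and 1 per probe set. Neither the MAS5 version nor its scaling target was stated in any source read. Samples were grouped by the labels as CNOT3KD or control and 0, 6 or 12 h. Values below 1 were raised to 1, with no further scaling. Probe sets were named with the platform annotation: 34945 had 1 gene symbol, 932 several and 9160 none. Gene identifiers of 34741 were found in the RefSeq gene list, among them all 21 used here. Each gene was read from its brightest probe set (highest mean of log2 signals), unless stated. With 1 array per condition, only ratios, counts past a fixed size and medians were computed, in Python 3.11.15 with pandas 2.3.3, numpy 2.4.6 and matplotlib 3.10.9. The counting was tested on simulated data, with changes larger than the thresholds planted in probe sets of strong signal and with little noise. That test does not cover dim probe sets or small changes.

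All measured glycolysis genes are named. In each other list, the 2 genes with the largest log2 fold at 0 h and the 2 with the largest log2 stabilization, in absolute size, are named, and the 5 genes nearest to Slc2a1. Cnot3 is named as the depleted gene. Beyond that rule, Pgam1 and the cell type markers were named after their values were seen. The genes and lists were chosen with earlier results of these data known. Alternatives were quantile normalization, median scaling, scaling to ribosomal protein genes, a pseudocount of 16, a floor at the 25th percentile, other thresholds, the median over the probe sets of a gene and each time alone. Array precision is limited by the number of arrays. The columns held no authors' comparisons.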

Additional observations from a re-analysis of the deposited data

Results flagged for a closer look

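Slc2a1 (log2 stabilization 2.13) stood out because, on its brightest probe set, the signal at 6 and 12 h was above that of 0 h in CNOT3KD MEFs (105% and 101%) and below it in control MEFs (43.7% and 12.6%). Its other 2 probe sets were below 100% in both cultures, at 91.6% and 91.5% at 6 h in CNOT3KD MEFs. The difference between the cultures was not tested, since each rests on 1 array per time.

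Pfkp (log2 stabilization 0.59) stood out in the same way on its brightest probe set, with 109% and 116% left in CNOT3KD MEFs, against 92.7% and 60.3% in control MEFs. The second Pfkp probe set did not show it, with 112% and 70.3% in CNOT3KD MEFs, against 116% and 82.0% in control MEFs, and the difference was not tested.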

How the results depend on the processing

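Of 44 recomputed summary values, 36 stayed within 1.5 times the reported count or near the reported median, and 0 reversed a call. The count of probe sets higher at 0 h fell to 2 at a threshold of 2.0-fold. The stabilized count fell to 2 with quantile normalization, where the third Slc2a1 probe set and Hk2 reached ratios of 1.75 and 1.83 at 6 h and the other 2 Slc2a1 probe sets still passed. With the cultures exchanged, the count was 2 at a ratio of 1.5 (the brightest Pfkl probe set and 1 of Aldoa). The median log2 stabilization of the 8 genes moved to 0.10 (0.0956) with quantile normalization, 0.49 (0.4937) with scaling to ribosomal protein genes, -0.23 with the median over probe sets, -0.21 at 6 h alone and 0.21 at 12 h alone. From the reported -0.02, that median crossed 0 with quantile normalization, ribosomal protein scaling and 12 h alone, and also with median scaling, at 0.03. The changed threshold accounts for the counts at 2.0-fold and 1.5, and for the other shifts the cause was not tested. The log2 stabilization ranged from 1.27 to 3.001 for Slc2a1 and from 1.06 to 1.93 for Hk2. The 112 recomputed single-gene values hold both 0 h folds and log2 stabilizations. A crossing of 0 occurred in 9, all of them log2 stabilizations, for Hk1, Pfkp, Aldoa, Pgk1 and Ldha. Among all probe sets past 1.5-fold at 0 h, 45.7% were higher in CNOT3KD MEFs, 49.5% with quantile normalization and 52.5% with median scaling. No paired analysis was possible because each condition has 1 array. The number of arrays limits the precision, and signals near the lower quartile of an array carry little information.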
